A study of Mus musculus with 4 samples.

Results

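KLF, EGR and NR4A proteins are transcription factors of which several are made within minutes of a stimulus. The 10 genes considered were Klf2, Klf4, Klf5, Klf6, Klf9, Egr1, Egr2, Nr4a1, Nr4a2 and Nr4a3, and every probe set with 1 of them as its single gene symbol was taken. This gave 13 of the 12488 probe sets on the array, for 9 of the 10 genes (of 8251 genes measured), with a pair of probe sets each for Klf4, Klf9, Egr1 and Nr4a2 and none for Nr4a3. The samples were RNA from the aortas of adult male C57BL/6J mice, pooled before hybridisation to Affymetrix MG-U74Av2 arrays. The rosiglitazone group (2 arrays, labelled 1 and 2) had received 25 mg/kg of the drug daily for 21 days, which activates the nuclear receptor PPARγ. The vehicle group (2 arrays, labelled 3 and 4) had received vehicle for 21 days. How many aortas made up a pool, and whether a group's arrays were hybridised from separate pools, is not given by the labels, so the p-values cover only how much these arrays vary within a group, and that may be technical.

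KLF factors are zinc finger proteins that bind GC-rich promoter elements. In the vessel wall Klf2 and Klf4 are known from endothelium exposed to laminar flow, and Klf4 and Klf5 from smooth muscle that leaves its contractile state. Egr1 and Egr2 are zinc finger proteins induced through growth factor and ERK signalling by way of serum response factor, which binds CArG boxes. Nr4a1, Nr4a2 and Nr4a3 (Nur77, Nurr1 and Nor1) are orphan nuclear receptors induced by cyclic AMP, calcium and inflammatory signals, and Nr4a1 and Nr4a2 can pair with RXR, which is also the partner of PPARγ.

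The promoter windows of the members are shown first because each NR4A window holds more places of 1 of the elements searched than any other member window used. From RefSeq's promoter table (GRCm38.p6) 12 windows for 8 of the 10 genes were used, and none for Klf5 or Egr1. The search left out any member window on 1 of the chromosomes, so the table itself may hold more. Each window was the 250 bases before an annotated transcript start, and 32851 such windows of all genes gave the background. The core of the cAMP response element, TGACG on either strand, was found at 4 places in each of the 3 NR4A windows. At least 1 such place was present in 17.8% of all windows, and at least 4 in 0.137% (45 windows), the latter count being chosen after the matches were seen. The windows are chr15:101266596-101266845 on the plus strand for Nr4a1, chr2:57124004-57124253 on the minus strand for Nr4a2 and chr4:48045055-48045304 on the plus strand for Nr4a3. They are written 5′ to 3′ with these cores in capitals.
Nr4a1: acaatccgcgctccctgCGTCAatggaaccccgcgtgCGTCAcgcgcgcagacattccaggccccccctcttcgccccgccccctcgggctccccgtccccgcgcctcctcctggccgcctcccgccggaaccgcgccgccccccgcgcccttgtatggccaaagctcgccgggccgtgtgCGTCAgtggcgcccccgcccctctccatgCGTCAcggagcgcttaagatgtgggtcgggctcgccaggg
Nr4a2: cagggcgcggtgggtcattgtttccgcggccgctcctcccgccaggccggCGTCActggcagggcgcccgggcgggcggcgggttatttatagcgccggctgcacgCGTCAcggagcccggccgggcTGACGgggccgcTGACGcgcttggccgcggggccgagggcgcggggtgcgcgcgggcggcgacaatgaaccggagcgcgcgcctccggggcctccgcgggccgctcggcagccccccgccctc
Nr4a3: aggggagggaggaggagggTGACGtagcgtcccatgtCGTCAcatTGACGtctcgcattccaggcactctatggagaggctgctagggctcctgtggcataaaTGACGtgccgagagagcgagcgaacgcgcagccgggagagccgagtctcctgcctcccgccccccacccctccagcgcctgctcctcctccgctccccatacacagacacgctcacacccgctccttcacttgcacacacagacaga

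GC boxes, GGGCGG on either strand, which KLF and SP proteins bind, are shown in the KLF windows but were not particular to them. Klf2 had 2, Klf4 had 4, Klf6 had 1 and Klf9 had 0, while Nr4a1 had 3, Nr4a2 had 4, Nr4a3 had 1 and the windows of Egr2 had 0 to 4. At least 1 was present for 7 of the 8 genes and in 32.7% of all windows. A GC box can overlap the EGR site GCGNGGGCG, which was present in the windows of Klf2, Klf4, Nr4a1 and Nr4a2 and in 4.70% of all windows. The Klf2 window also held a MEF2 site, the element through which MEF2 factors are known to drive this gene in endothelium, 118 bases before the start. MEF2 sites were present in 2.92% of all windows, among them that of Nr4a2. Capitals mark the GC boxes and, in Klf2, the MEF2 site (CTAAATTTAG). The windows are chr8:72318812-72319061 (plus strand) for Klf2, chr4:55532476-55532725 (minus strand) for Klf4 and chr13:5861239-5861488 (plus strand) for Klf6.
Klf2: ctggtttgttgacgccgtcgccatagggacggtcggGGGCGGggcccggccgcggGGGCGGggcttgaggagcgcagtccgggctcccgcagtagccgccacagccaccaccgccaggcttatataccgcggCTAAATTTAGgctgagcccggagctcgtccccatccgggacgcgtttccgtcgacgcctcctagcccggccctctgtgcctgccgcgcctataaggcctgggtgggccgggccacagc
Klf4: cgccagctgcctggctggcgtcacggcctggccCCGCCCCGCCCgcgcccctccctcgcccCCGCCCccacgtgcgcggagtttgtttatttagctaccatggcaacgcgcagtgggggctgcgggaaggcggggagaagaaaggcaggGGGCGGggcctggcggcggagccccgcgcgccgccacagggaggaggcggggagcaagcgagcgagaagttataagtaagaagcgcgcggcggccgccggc
Klf6: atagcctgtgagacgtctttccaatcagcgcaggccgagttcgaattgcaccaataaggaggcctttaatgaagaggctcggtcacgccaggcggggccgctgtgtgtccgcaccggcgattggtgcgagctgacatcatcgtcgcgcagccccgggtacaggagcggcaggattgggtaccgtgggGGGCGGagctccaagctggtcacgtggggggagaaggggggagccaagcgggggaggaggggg

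Egr2 had 5 windows, 4 of which held a CArG box, an element present in 1.47% of all windows. The windows of its last 3 starts share most of their bases and hold the same box, CCATATATGG, between a pair of TGACG cores. The third window, chr10:67537619-67537868 on the plus strand, is printed with this box in capitals.
Egr2: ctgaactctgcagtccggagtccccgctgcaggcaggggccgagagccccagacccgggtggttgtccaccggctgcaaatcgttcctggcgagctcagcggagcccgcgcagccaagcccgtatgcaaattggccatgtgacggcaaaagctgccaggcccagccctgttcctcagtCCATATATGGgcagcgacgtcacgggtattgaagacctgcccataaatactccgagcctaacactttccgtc

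**Figure D1:**
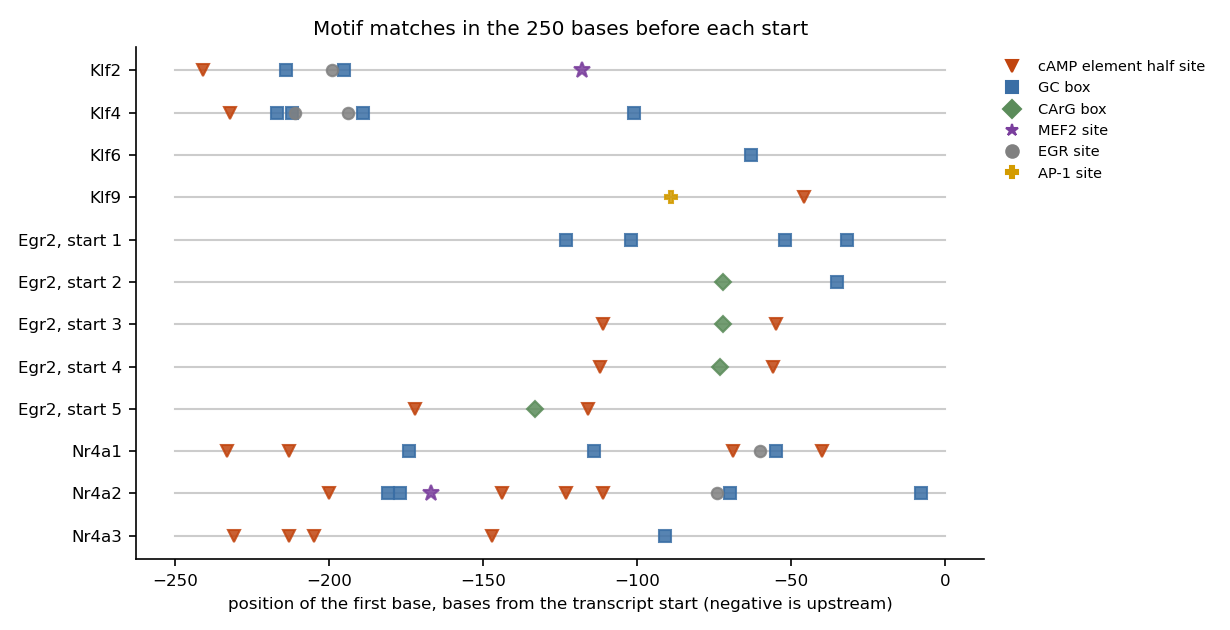
Positions of 6 motifs in the 250 bases before each transcript start of the members whose windows were used, with the horizontal axis in bases from the start and 1 row per window. Each of the 3 NR4A rows carries 4 cAMP element cores, whereas no KLF row carries more than 1.

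The Klf9 window (chr19:23140976-23141225, plus strand) held 1 TGACG and 1 AP-1 site, TGANTCA, which 6.75% of all windows held. The full cAMP element TGACGTCA, the NR4A element AAAGGTCA and the spaced AGGTCA repeat to which PPAR and RXR bind were in 0 of the 12 member windows, against 1.55%, 1.34% and 0.0335% of all windows. GC content was 59.6% or more in the windows of Klf2, Klf4, Klf6, Klf9, Nr4a1, Nr4a2 and Nr4a3 and 54.0% to 71.2% for Egr2. The median over all windows was 52.4%, and how often a short motif is met depends on base composition. These matches describe letters in a window and were not tested as binding sites.

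Against vehicle, rosiglitazone-treated aortas had lower signal on both arrays for 3 tested KLF probe sets, those of Klf6, Klf4 and Klf9 (93528_s_at). The Klf2 probe set, which was not tested, was lower as well. The EGR genes and Nr4a1 had overlapping groups, and the probe sets of Nr4a2 disagreed. None of the differences tested passed. The deposited values are intensities on a linear scale. Values under 148, the 20th percentile of all values, were set to 148 before log2 was taken, and a probe set was tested only if the mean of its log2 values reached that of 414, the 40th percentile. By this filter 8 of the 13 member probe sets were tested, 1 for each measured gene except Klf2, which was not tested. In limma with Benjamini-Hochberg adjustment over 7134 probe sets, 0 of the 8 had an adjusted p under 0.05, a threshold that 0.364% of all probe sets passed (0.322% lower and 0.0421% higher with rosiglitazone). At an unadjusted p under 0.05 there were 2, those of Klf6 and Klf9, against 10.9% of all probe sets in either direction. Both were lower and without overlap, as were 5.76% of all probe sets. Groups that did not overlap and were lower with rosiglitazone were seen for 3 of the 8, against 21.8% of all probe sets tested. Groups higher without overlap numbered 0 of the 8, against 19.0%. Below 0 were 7 of the 8, against 51.9% of all. The median of the 8 was -0.39 on the log2 scale, against -0.02 over all probe sets tested. With 2 arrays against 2 an exact permutation test cannot give a two-sided p below 0.333.

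**Figure D2:**
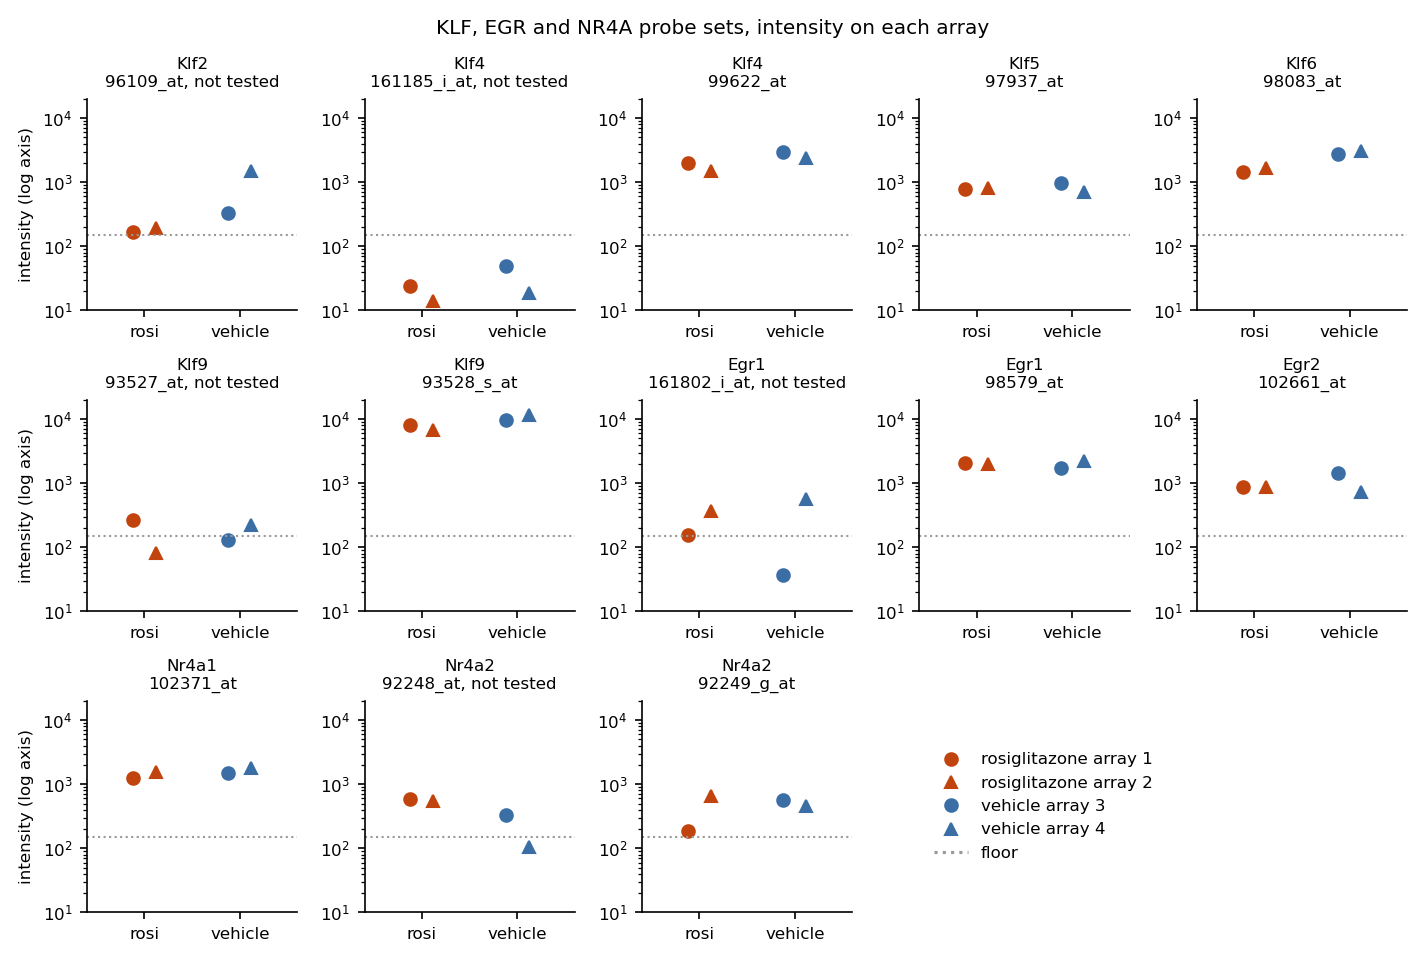
Deposited intensity of each of the 13 member probe sets on each array, 1 panel per probe set, on a log axis, with rosiglitazone in red, vehicle in blue and the floor of 148 as a dotted line. The Klf6, Klf4 (99622_at), Klf9 (93528_s_at) and Klf2 panels show both rosiglitazone arrays under both vehicle arrays, and the Nr4a2 panel of 92248_at shows the reverse.

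Arrays of the same group correlated at 0.881 (rosiglitazone) and 0.892 (vehicle) over the probe sets tested and arrays of different groups at 0.855 to 0.866, where probe sets are not independent replicates. The typical SD between arrays of a group was 0.29 for rosiglitazone and 0.25 for vehicle on the log2 scale. Median intensities were 591 to 648, and centring them shifted every fold change upward by 0.08. Signal of the 3′ over the 5′ probe set, which rises as RNA degrades, was for Gapdh 8.79 and 10.8 after rosiglitazone and 11.1 on each vehicle array. For actin it was 7.74 and 9.62 against 8.88 and 11.9. Both ratios are far above 1 on every array, and their part in the results was not tested. Pparg, the receptor of the drug, was measured at 3331 and 1664 in treated aortas, against 3843 and 3238 after vehicle.

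Among the KLF genes Klf6, a ubiquitous early-response factor that promotes fat cell differentiation, had the smallest p. Its probe set (98083_at) read 1442 and 1697 after rosiglitazone against 2751 and 3043 after vehicle. The groups were well apart and the arrays of each group close together, with log2 levels of 10.61 ± 0.17 and 11.50 ± 0.10 (SD, n = 2 each). The log2 fold change was -0.89 with a standard error of 0.29 (limma, unadjusted p = 0.0142, adjusted p = 0.303), a level of 54.1% of vehicle. The 95% interval of the ratio ran from 0.342 to 0.856. Among all probe sets tested, 8.65% had a lower fold change than Klf6. With any 1 array left out it stayed at -0.77 or lower.

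Klf4, which represses contractile genes when smooth muscle dedifferentiates and protects endothelium, read 1976 and 1484 with rosiglitazone and 2983 and 2425 with vehicle on 99622_at. Both rosiglitazone values lay below both vehicle values, by a smaller gap than the spread within either group. The log2 fold change was -0.65 with a standard error of 0.31 (adjusted p = 0.49 in limma), and the ratio's interval of 0.392 to 1.03 includes no difference. A second Klf4 probe set (161185_i_at) read 24 and 14 against 50 and 19, under the floor on all 4 arrays, so it gives no fold.

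Klf9, a factor induced by glucocorticoids and thyroid hormone, read 7985 and 6868 with rosiglitazone and 9692 and 11551 with vehicle on 93528_s_at. Here too the groups did not overlap. The log2 fold change was -0.51 with a standard error of 0.22 (limma, unadjusted p = 0.0416, adjusted p = 0.435), or 70.0% of vehicle with an interval of the ratio from 0.498 to 0.983. The suffix of this probe set marks probes that can match more than 1 transcript. Another Klf9 probe set (93527_at) was dim, at 271 and 82 against 132 and 225, and was not tested. Its groups overlapped, with 1 array of each under the floor.

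Klf2, a flow-induced factor of endothelium and quiescent lymphocytes that also represses Pparg in preadipocytes, read 169 and 193 with rosiglitazone and 333 and 1496 with vehicle. The rosiglitazone arrays lay just above the floor, and the vehicle arrays differed from each other by 4.49-fold. The mean log2 fold change was -1.97, the lowest of the members, but its SD over the vehicle arrays was 1.53 on the log2 scale. Its probe set (96109_at) was left out of the test by the filter. In the fit without the filter the standard error was 0.95 and the adjusted p 0.709 (limma). Without vehicle replicate 4 the log2 fold change was -0.88, and without vehicle replicate 3 it was -3.05, so its size rests on which vehicle array is kept. With the floor at the 40th percentile it was -0.93.

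Klf5, an activator of smooth muscle growth and of fat cell differentiation, read 791 and 806 with rosiglitazone and 957 and 703 with vehicle (97937_at). The rosiglitazone values lay between those of vehicle. Its log2 fold change of -0.04 had an interval of the ratio from 0.463 to 2.05, so a 2-fold difference in either direction lies within it. Its sign turned under other scalings, to 0.044 with median centring and 0.045 with quantile normalisation.

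**Figure D3:**
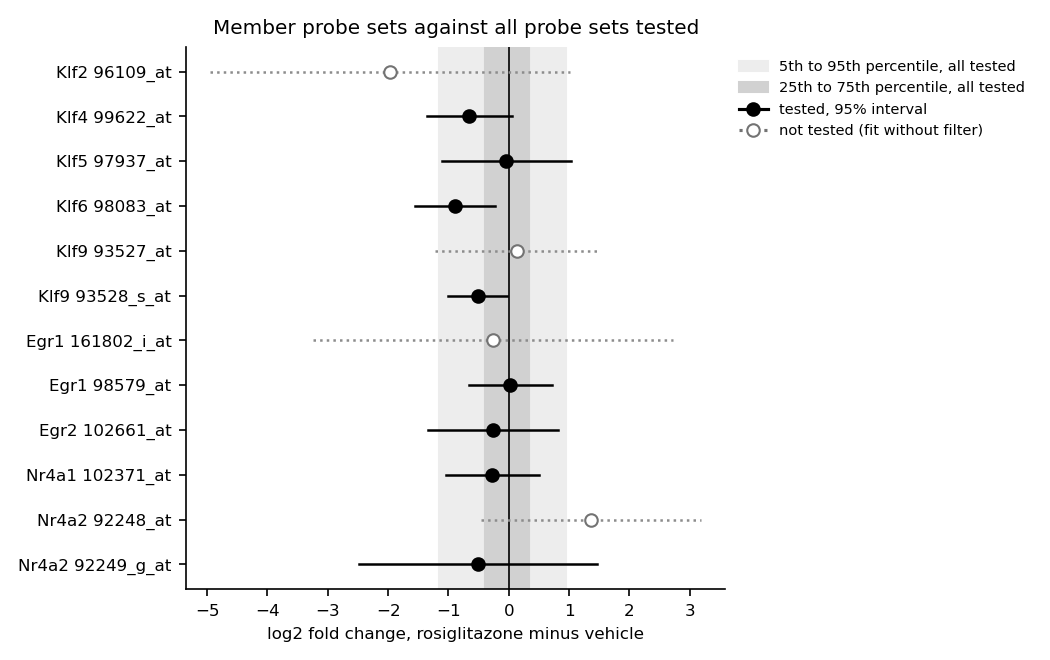
Log2 fold change of rosiglitazone minus vehicle for 12 member probe sets, with 95% intervals from limma, filled points for those tested and open points for those that were not, over bands holding the middle of all probe sets tested. Every tested member lies within the band from the 5th to the 95th percentile (-1.15 to 0.95), and only the intervals of Klf6 and Klf9 (93528_s_at) leave out 0.

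Egr1, the early zinc finger factor that induces Pdgfa and tissue factor in injured vessels, was nearly equal in both groups. On 98579_at it read 2048 and 2005 with rosiglitazone and 1747 and 2264 with vehicle, the rosiglitazone arrays lying between the vehicle arrays. The log2 fold change was 0.03 ± 0.31 (standard error), with an adjusted p of 0.987 in limma. The interval of the ratio, 0.632 to 1.64, includes no difference and covers only how much these arrays vary within a group. The other Egr1 probe set (161802_i_at) was dim and scattered, at 157 and 374 against 37 and 569. It was not tested.

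Egr2, which takes part in myelination and in the start of fat cell differentiation, read 873 and 861 with rosiglitazone and 1451 and 742 with vehicle (102661_at). The rosiglitazone arrays agreed closely, with an SD of 0.01 on the log2 scale, and the vehicle arrays differed, with an SD of 0.68. The log2 fold change of -0.26 had a standard error of 0.48 (limma, adjusted p = 0.89). It was -0.74 without vehicle replicate 4 and 0.22 without vehicle replicate 3.

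Nr4a1, known from macrophages and vascular smooth muscle as a brake on inflammation and growth, read 1234 and 1533 with rosiglitazone and 1523 and 1808 with vehicle (102371_at). The upper rosiglitazone value just exceeded the lower vehicle value. The log2 fold change was -0.27 ± 0.34 (standard error), with an adjusted p of 0.827 in limma, and the interval of the ratio was 0.486 to 1.41. It stayed below 0 with any 1 array left out, from -0.43 to -0.11.

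Nr4a2, a receptor induced by prostaglandins and cytokines, gave opposite signs on its probe sets, which the probe table assigns to the same accession. On 92248_at it read 594 and 539 against 326 and 105, so both rosiglitazone arrays were higher. This probe set was not tested, and 1 vehicle array lay under the floor. Its log2 fold change was 1.37, and 1.61 with the floor at the 10th percentile. On 92249_g_at Nr4a2 read 188 and 663 against 562 and 453. There the low value of rosiglitazone array 1 set the mean, and the log2 fold change of -0.52 (limma, adjusted p = 0.875) became 0.39 without rosiglitazone replicate 1. No direction can be given for this gene.

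**Figure D4:**
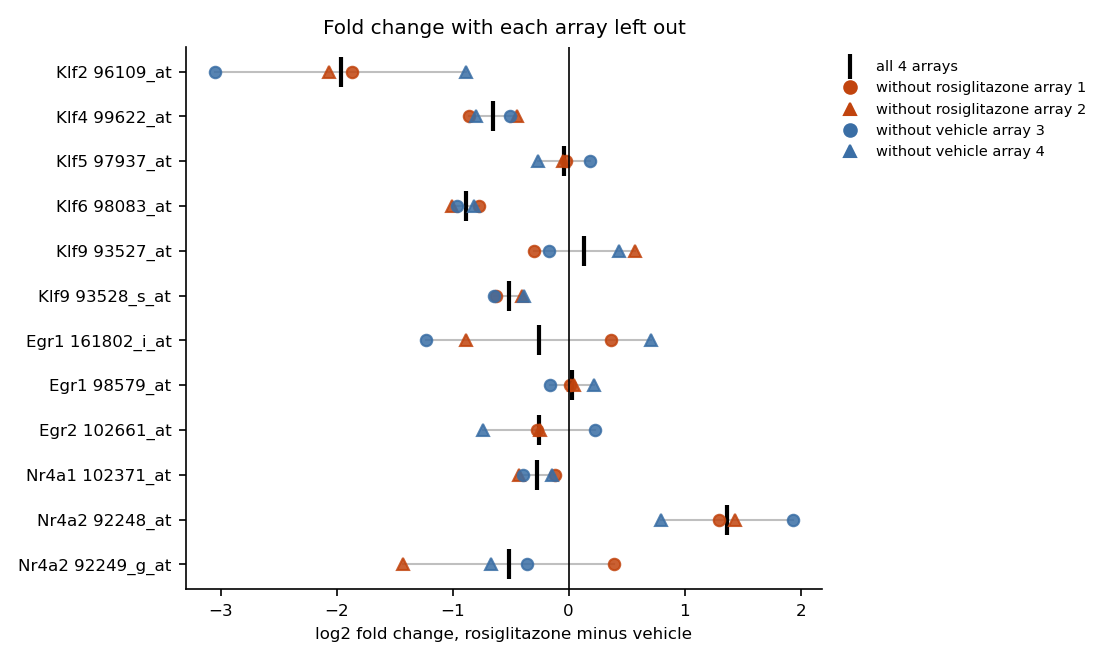
Log2 fold change of 12 member probe sets with all 4 arrays (black bar) and with each array left out in turn (symbols). Klf6, Klf4 and Klf9 (93528_s_at) stay below 0 throughout, Klf2 ranges from -3.05 to -0.88, and both Egr1 probe sets, Egr2, Klf5, Klf9 (93527_at) and Nr4a2 (92249_g_at) cross 0.

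Relatives of the members were counted with 1 probe set a gene, the brightest, beside 5466 genes tested, of which 51.8% lay below 0 with a median of -0.02. Other KLF and SP family genes had 7 of 9 tested below 0, with -0.37 as their median, and 0 passed in limma (3 at an unadjusted p under 0.05). Sp1, a general activator that binds GC boxes, read 2055 and 3230 with rosiglitazone and 5577 and 4275 with vehicle (log2 fold change -0.92, adjusted p = 0.293). Klf3, a repressor related to Klf2, had -0.72 and Klf1, the erythroid factor, had -1.51, the latter from -2.41 to -0.61 with 1 array left out. Sp3 had -0.56. The EGR co-repressors Nab1 and Nab2 had -0.30 and -0.64, with Nab2 read at 1461 on vehicle array 4 and between 528 and 566 on the others. Of the RXR partners, Rxrb had -0.81 and Rxra 0.31.

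Kinases and factors that act upstream of the members were evenly divided, with 6 of 12 tested genes below 0, a median of 0.02 and 0 past the threshold in limma (1 at an unadjusted p under 0.05). That 1 was Mef2a, a factor that binds MEF2 sites, which read 1937 and 1232 with rosiglitazone and 3406 and 3847 with vehicle (log2 fold change -1.23, adjusted p = 0.164). Map2k5, the kinase of the ERK5 pathway that leads to Klf2 and Klf4, had 0.68, Map2k1 had 0.74 and Mrtfa, a coactivator of serum response factor, had 0.60.

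Other immediate-early genes were further below 0 than the members, with 20 of 21 tested below 0, a median of -0.71 and 12 at an unadjusted p under 0.05 in limma. After adjustment 1 passed, Gadd45b, a stress-induced gene, at -4.26 with 1 rosiglitazone array under the floor (adjusted p = 0.00768). Leaving out vehicle replicate 3 (-4.46) or 4 (-4.07) ended the call. With no filter on dim probe sets 0 of 12422 probe sets passed in limma (1202 at an unadjusted p under 0.05). Each call named in these lists therefore rests on the filter. With the floor raised to the 40th percentile 0 of 12422 passed too (933 at an unadjusted p under 0.05). That floor equals the filter's limit of 414, so it let every probe set through the filter. The effect of the raised floor alone was not tested. Without the intensity trend 7 passed, among them S100a9 and none of the other called genes named here. Ier3 had -2.42, Bhlhe40 -2.74 with 1 rosiglitazone array under the floor, Atf3 -1.13 and Rgs2 -0.93, none past the threshold. The members' own median was -0.39, and the difference between these lists was not tested.

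Genes known as targets of the members were counted too. Endothelial targets of Klf2 and Klf4 had 5 of 6 tested below 0 and a median of -0.58, and 0 passed in limma (0 at an unadjusted p under 0.05). Thbd, the anticoagulant receptor thrombomodulin that Klf2 induces, read 595 and 703 against 1180 and 1315 (log2 fold change -0.95, adjusted p = 0.476). Vcam1, an adhesion molecule that Klf2 restrains, had -0.62. The list thus mixes genes that Klf2 induces and restrains, so its count and median cannot be read as a direction of Klf2 action. Any part of Klf2 in these values was not tested. Tek had -0.58 and Edn1 -0.58, the latter with overlapping groups.

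Egr1 targets had 5 of 5 tested below 0 with a median of -0.29, none past the threshold in limma (0, and 0 at an unadjusted p under 0.05). Mmp14, Nab2, Pdgfa and F3 had -0.40, -0.64, -0.22 and -0.16, with overlapping groups for all of them but Mmp14. Nab2 is also counted among the EGR co-repressors, and Pdgfa among the smooth muscle targets of Klf4 and Klf5. Those lists are therefore not separate from the Egr1 targets. Smooth muscle targets of Klf4 and Klf5 had 5 of 6 below 0, a median of -1.19 and 4 at an unadjusted p under 0.05. Tagln, a contractile gene that Klf4 represses, passed in limma at -1.26 (adjusted p = 0.0455). It no longer passed when rosiglitazone replicate 2 (-1.10), vehicle replicate 3 (-1.25) or vehicle replicate 4 (-1.28) was omitted, with the floor at the 10th percentile (adjusted p = 0.0558) or with median centring (adjusted p = 0.0952). The contractile genes Cnn1 (-1.33), Myh11 (-1.55) and Acta2 (-1.12) did not pass. Tagln, Cnn1, Myh11 and Acta2 are also counted among the smooth muscle markers below, whose median is the same. The target list is therefore not separate from the marker list. Klf4, which did not pass, and the named contractile genes that it is known to repress were all lower on both rosiglitazone arrays. Any link between them was not tested. Targets of NR4A receptors had a median of 0.00 over 4 genes tested, Pomc, Th, Slc2a4 and Eno3, all with overlapping groups and 0 past the threshold in limma or at an unadjusted p under 0.05.

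Glucocorticoid-responsive genes, to which Klf9 belongs, had 8 of 10 tested below 0, a median of -0.58 and 0 past the threshold in limma (3 at an unadjusted p under 0.05). Mt2, metallothionein 2, read 15994 and 19492 with rosiglitazone and 31447 and 33042 with vehicle (log2 fold change -0.87, adjusted p = 0.116). Cdkn1a had -0.77, Dusp1 -0.60 and Errfi1 -0.63. The adipogenesis cascade, in which Klf4, Klf5, Klf6, Klf9 and Egr2 are known promoters, had 4 of 10 below 0, a median of 0.11 and 0 past the threshold in limma (3 at an unadjusted p under 0.05). Srebf1, a lipogenic regulator, had 0.96, Cebpa 0.52 and Adipoq 0.46, while Cebpd, an early factor of the cascade, had -0.66.

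**Figure D5:**
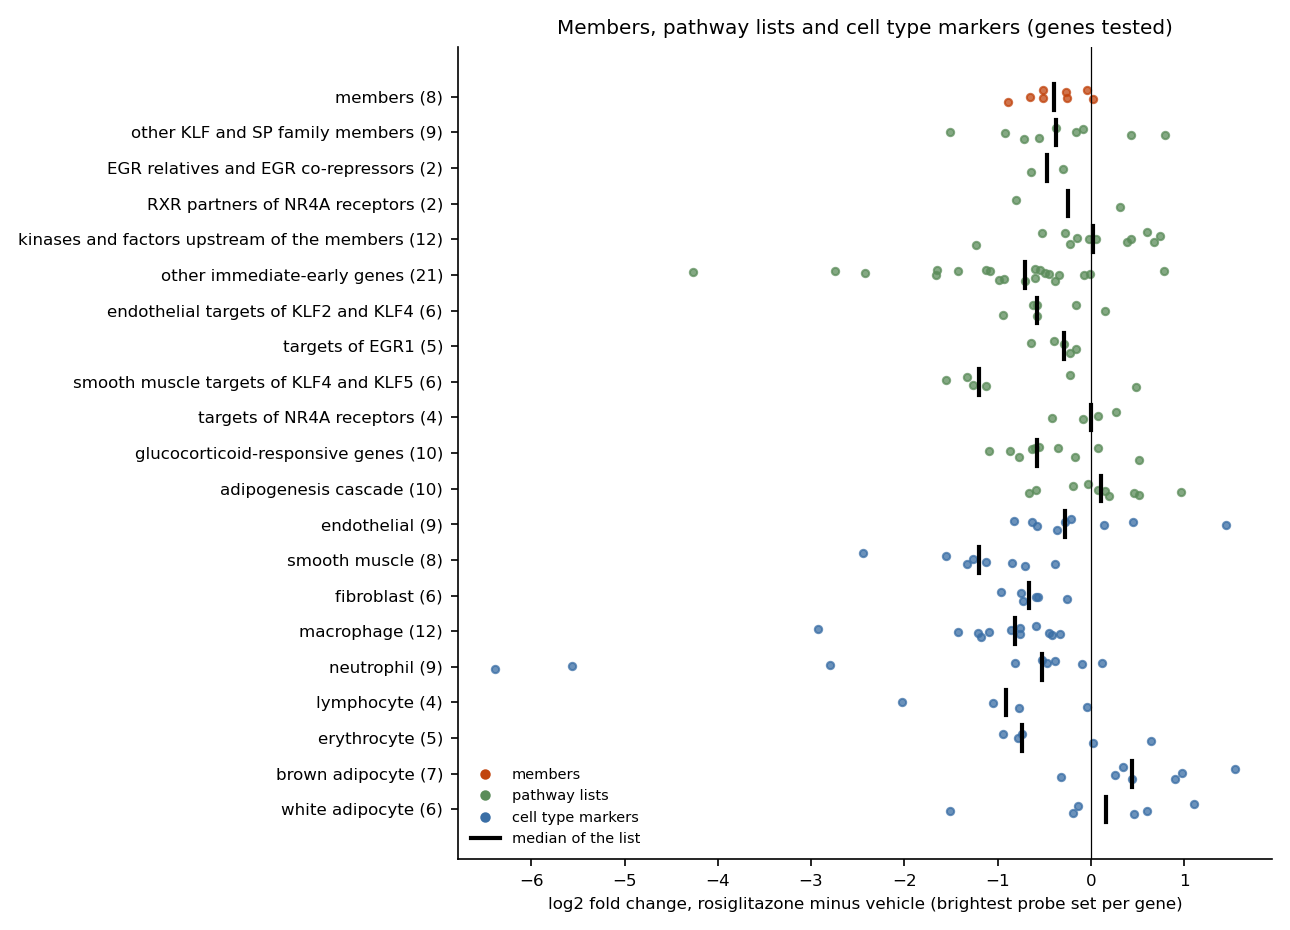
Log2 fold change of each tested gene (points, brightest probe set) in the members, the pathway lists and the cell type marker lists, with the number tested in parentheses and the list's median as a black bar. The members' median is -0.39, that of other immediate-early genes -0.71 and that of brown adipocyte markers 0.44.

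Markers of several cell types differed between the same arrays. In bulk RNA on a shared scale, fewer cells of a type, less RNA per cell and more RNA from other cells cannot be told apart. Smooth muscle markers, which define the aortic wall, were below 0 for 8 of 8 tested genes with a median of -1.19, 1 passing in limma (Tagln). Their summed intensity was 57546 to 63077 with rosiglitazone and 119665 to 142985 with vehicle. Macrophage markers had 12 of 12 below 0, a median of -0.81 and sums of 36050 to 38314 against 81941 to 87366, with Cd14 past the threshold at -2.93. Neutrophil markers had 8 of 9 below 0, a median of -0.52 and sums of 8633 to 10947 against 132735 to 197370, with S100a8 (-6.39) and S100a9 (-5.57) past it. These 2 genes carried most of the neutrophil sums, which without them were 5551 to 9256 against 9919 to 11307. Without Cd14 the macrophage sums were 32408 to 34818 against 54412 to 60536. At an unadjusted p under 0.05 were 7 of 8 smooth muscle, 7 of 12 macrophage and 4 of 9 neutrophil markers. Cd14, S100a8 and S100a9 kept their calls with any 1 array left out.

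Endothelial markers, the cell type most tied to Klf2 and Klf4, differed less, with 6 of 9 below 0, a median of -0.28 and 2 at an unadjusted p under 0.05. Their sums were 26943 to 33558 with rosiglitazone and 30869 to 37607 with vehicle, which overlap. Cldn5, a tight junction gene, was above 0 at 1.45, while Tie1 had -0.83 and Vwf -0.63. Fibroblast markers had 6 of 6 below 0 (median -0.66, sums of 84229 to 100671 against 128256 to 153748), lymphocyte markers 4 of 4 (median -0.91, sums of 3909 to 5006 against 5909 to 6220) and erythrocyte markers 3 of 5 (median -0.73, sums of 507470 to 669832 against 564339 to 658452). Of these 3 lists 3, 1 and 3 genes were at an unadjusted p under 0.05.

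Brown adipocyte markers were above 0 for 6 of 7 (3 at an unadjusted p under 0.05), with a median of 0.44 and sums of 412321 to 450320 against 291518 to 296339. Fabp3 passed in limma at 1.55 (adjusted p = 0.024). Omitting vehicle replicate 3 (1.70) or 4 (1.39) ended this call. White adipocyte markers had 3 of 6 above 0 (2 at an unadjusted p under 0.05), a median of 0.16 and sums of 351376 to 363972 against 241519 to 253920. Most of the white sums came from Adipoq (165554 and 195068 against 125080 and 136822) and Pnpla2 (146776 and 137138 against 92085 and 94365). Most of the brown sums came from Cidea (240828 and 286124 against 188712 and 199365). Neither sum therefore speaks for its whole list. No marker with a probe set (0) was under the floor on all 4 arrays. The part of these cell types in the lower signal of Klf6, Klf4, Klf9 and Klf2 was not tested.

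Genes with the most similar profile were found for the tested member of smallest p in each family, by Euclidean distance between log2 values centred on their mean over the 4 arrays. Nearest to Klf6 were Cpq, a carboxypeptidase (distance 0.04), Enah, an actin regulator (0.04), and Thbd (0.06). Nearest to Egr2 were Apcs, Pdxdc1 and Pbrm1, each with the high value on vehicle array 3, at distances from 0.02 to 0.11. Nearest to Nr4a1 were Pltp, Ythdf1 and Nans, at distances from 0.02 to 0.04. With only 4 arrays these names are given as a description.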

How the data were processed

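Aortic RNA was measured on 2 rosiglitazone and 2 vehicle arrays, grouped by their titles. The deposited values are intensities, 1 whole number per probe set and array; the software and background correction that made them are not given in the sources used here. They share a scale: the mean with 2% trimmed at each end was 1501 on each array. Their number limits the precision, and no detection calls were used. After leaving out 66 control probe sets, 12422 remained, of which 10833 had 1 gene symbol, updated by gene identifier.

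Values under 148 were raised to it, log2 was taken, and 7134 probe sets whose mean log2 value was at least log2 of 414 were fitted in R 4.3.3 with limma 3.58.1 (lmFit, eBayes with an intensity trend, two-sided, Benjamini-Hochberg, threshold 0.05). Residual degrees of freedom were 2, and prior ones 7.14 (median). The procedure was run on simulated data, with added differences larger than any seen in a tested member. That run does not show how well differences of the members' size are found. Fold changes of probe sets outside the filter come from the fit without it.

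The members and all gene lists were chosen with earlier results of these data known. Named genes are the members, those of each list past the threshold and up to 4 others of smallest p per list, and the 3 nearest profiles per family. Alternatives were the floor, the filter, the scaling, the trend and each array left out, with the filter applied again to the arrays kept. Promoter windows come from RefSeq (GRCm38.p6), using the 250 bases before each start and not the 50 after it. Both strands were searched, with CArG boxes and MEF2 sites matched by their usual consensus. A planned comparison of member proteins was not run, since no protein sequence was used here.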

Additional observations from a re-analysis of the deposited data

How the results depend on the processing

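No member probe set (0) passed the adjusted threshold in limma under any of the 10 alternatives. Those at an unadjusted p under 0.05 numbered 2, 3 with the floor at the 40th percentile (13 tested), 1 with median centring or with no intensity trend, and from 0 to 3 with 1 array left out. Over all probe sets, 26 passed. The count was 0 with no filter and 0 with the floor at the 40th percentile (1202 and 933 of 12422 at an unadjusted p under 0.05), 7 with no intensity trend, and from 6 to 71 with 1 array left out, namely 44 and 71 without rosiglitazone replicate 1 and 2 and 6 without vehicle replicate 3 or 4. The floor at the 40th percentile equals the filter's limit of 414, so that setting also removed the filter. Among log2 fold changes, Klf6, Klf4 (99622_at), Klf9 (93528_s_at), Klf2 and Nr4a1 stayed below 0 under all 10. Klf5 became 0.044 with median centring and 0.045 with quantile normalisation, and Nr4a2 (92249_g_at) became 0.054 with the floor at the 40th percentile. With 1 array left out the range was -0.26 to 0.18 for Klf5, -0.16 to 0.21 for Egr1 (98579_at), -0.74 to 0.22 for Egr2 and -1.42 to 0.39 for Nr4a2 (92249_g_at). Nr4a2 on 92248_at was 0.45 with the floor at the 40th percentile, since that floor lies above both of its vehicle values. A group left with 1 array was assumed to vary like the other. No paired analysis was possible because the groups share no replicate number. Signal over background limits Klf2, whose rosiglitazone values of 169 and 193 lie near the floor.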
